A study of Mus musculus with 5 samples.

Results

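The colony-stimulating factor 1 receptor axis was followed in tumor-bearing mouse brain through 8 genes: the ligands Csf1 and Il34, the receptors Csf1r, Csf2ra and Csf2rb, and the transcription factors Spi1, Irf8 and Runx1. They were given as a list of mouse symbols and matched to the Ensembl identifiers of the deposited count tables, and all 8 were found among the 55573 genes listed. Female C57BL/6 mice received an inoculation of GL261 glioma cells, a mouse line transduced with luciferase and mKate2, into the right caudate nucleus-putamen at 7 to 8 weeks of age, and mice with a low bioluminescence signal were not included. The vehicle group (3 libraries) was given InVivoPure dilution buffer. The UMBO group (2 libraries) underwent ultrasound-mediated blood-brain barrier opening, in which low-intensity pulsed ultrasound is applied together with intravenous microbubbles. Sessions took place on days 21 and 24, and the right hemisphere was collected 24 h after the last one. Each library is bulk RNA of a right hemisphere, and it mixes the RNA of tumor, brain and infiltrating cells. The study's methods describe separate mice divided into these groups, with 1 mouse more than the 5 libraries analysed here, and no label names the mouse behind each library. Whether the vehicle mice received microbubbles is not given in the sources used here. The question was whether UMBO alone alters the expression of these myeloid genes.

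CSF1R is a receptor tyrosine kinase on which microglia and most tissue macrophages depend for survival. It is bound by 2 ligands of unrelated sequence, CSF1 and IL-34, of which IL-34 in the forebrain comes mainly from neurons. CSF2RA and CSF2RB form the receptor for GM-CSF, with the beta subunit doing most of the signaling. PU.1 (encoded by Spi1), IRF8 and RUNX1 are transcription factors of the myeloid lineage, and PU.1 and RUNX1 act on the Csf1r gene itself.

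No promoter window was available for Il34, Csf2rb and Spi1, and Csf1r was left out of the motif search. Promoter windows (250 bases before to 50 after a RefSeq start, build GRCm38.p6) were examined for 4 of the 8 genes: Csf1, Csf2ra, Irf8 and Runx1. Those in which letters of a binding motif of this same regulatory circuit, or of its cytokine signaling, were found are shown, so that those letters can be read beside the values of the genes. The motifs searched on both strands were GAGGAAG (a core bound by PU.1 and other ETS factors), TGTGGT (RUNX), TTCNNNGAA (the GAS element bound by STAT factors) and an ETS-IRF composite, GGAA and GAAA with 2 free bases between them. Capitals mark the matches. In the first 2 sequences, the 250 bases before the start are printed, and in the third a stretch just after it.
Irf8 (chr8:120736108-120736357, plus strand): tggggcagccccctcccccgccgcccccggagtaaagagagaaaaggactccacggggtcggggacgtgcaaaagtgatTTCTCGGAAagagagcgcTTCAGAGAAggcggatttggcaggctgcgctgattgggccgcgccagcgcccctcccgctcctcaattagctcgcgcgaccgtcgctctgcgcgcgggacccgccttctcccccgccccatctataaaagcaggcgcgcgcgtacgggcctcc
Csf2ra (chr19:61228419-61228668, minus strand): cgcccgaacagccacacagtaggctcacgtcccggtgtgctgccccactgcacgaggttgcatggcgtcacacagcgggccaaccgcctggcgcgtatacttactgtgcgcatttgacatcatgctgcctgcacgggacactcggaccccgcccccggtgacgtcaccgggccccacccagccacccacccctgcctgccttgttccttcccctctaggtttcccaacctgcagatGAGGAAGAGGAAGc
Runx1 distal start (chr16:92826029-92826050, minus strand): aacaACCACAgaACCACAagtt
The Irf8 window held 2 GAS matches, at -171 to -163 and -153 to -145 from the start. The Csf2ra window held 2 GAGGAAG matches, at -14 to -8 and -8 to -2, which overlap by 1 base. The window of the distal Runx1 start held 2 RUNX matches on the opposite strand, at 29 to 34 and 37 to 42 after the start. None of the 4 motifs was found in the Csf1 window or in the windows of the second Irf8 and the second Runx1 start. Among all 32851 windows of this length, 13.6% held GAGGAAG, 16.8% TGTGGT, 8.3% TTCNNNGAA and 2.72% the ETS-IRF letters. A match is a stretch of letters and was not tested for binding.

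The total count lay between 59736771 and 86164159 per library, so counting error was small beside the spread between libraries. UMBO replicate 2 stood apart from the other libraries. It lay at 133.7 on the first principal component of log2 expression, which held 78.7% of the variance, while the others lay between -68.4 and 17.0. The share of mitochondrial counts was 3.36% in UMBO replicate 2 and 5.29 to 6.61% elsewhere. Levels are given as CPM, a gene's count scaled to a common library size by edgeR's TMM method, and 23592 genes with enough counts were compared with edgeR's quasi-likelihood test. No gene passed an adjusted p of 0.05 (0% called), while 1738 genes (7.37%) had an unadjusted p under 0.05 and DESeq2 gave 39 genes past the adjusted threshold, none of them among the 8. In 7 of the 8 genes the mean was higher with UMBO and the log2 fold change above 0, where 50.9% of all genes had one above 0. Csf1r, Csf1, Csf2rb, Spi1 and Runx1, 5 of the 8, had an unadjusted p under 0.05 toward higher values, against 5.3% of all genes, and 0 of the 8 toward lower values, against 2.06%. Without vehicle replicate 1 or without vehicle replicate 3 that number was 0, and without UMBO replicate 2 it was 1, Csf1r. The share of all genes with such a p in either direction fell too, to 1.28%, 1.88% and 1.86% in these fits. For Csf1r, Csf1 and Runx1, 3 of the 8, the lower UMBO library exceeded the highest vehicle library, as it did for 11.5% of all genes. In bulk RNA, more cells of a type and more RNA per cell cannot be told apart.

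**Figure D1:**
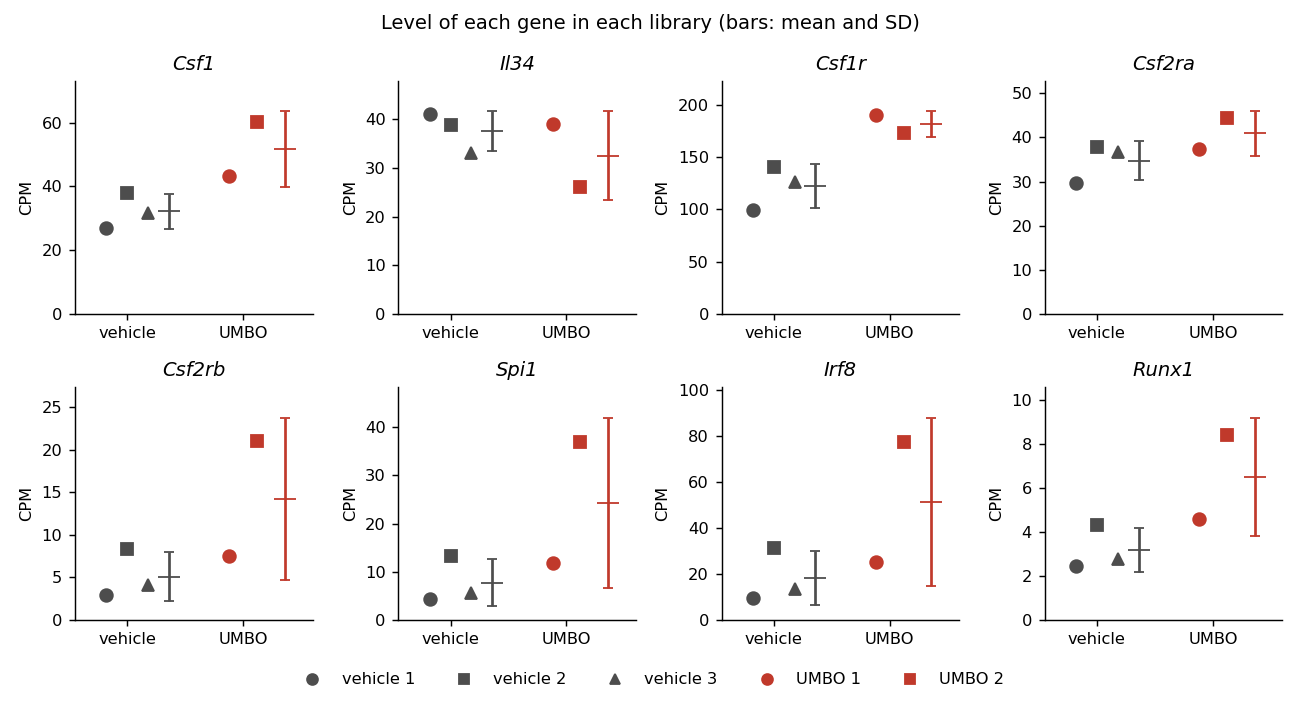
CPM of each of the 8 genes (vertical axes from 0) in the 3 vehicle libraries (dark grey) and the 2 UMBO libraries (red), with the mean and SD of each group beside the points. The 2 UMBO libraries lie close together for Csf1r, at 190.4 and 173.2 CPM, and far apart for Spi1, at 11.8 and 36.9 CPM.

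Csf1, the ligand that drives macrophage proliferation and survival, was at 27.0, 37.9 and 31.8 CPM in vehicle replicates 1 to 3 and at 43.3 and 60.1 CPM in UMBO replicates 1 and 2. Both UMBO libraries were above all vehicle libraries, though UMBO replicate 1 exceeded vehicle replicate 2 by little. The means were 32.2 ± 5.48 CPM (SD, n = 3) and 51.7 ± 11.9 CPM (SD, n = 2), 1.6-fold apart. The log2 fold change was 0.68 (standard error 0.227), with an edgeR unadjusted p of 0.024 and an adjusted p of 0.497. Csf1 lies on chromosome 3 of GRCm38 (107741048 to 107760469, minus strand).

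Il34, the other ligand, did not pass the test in either direction. It was at 41.1, 38.8 and 33.1 CPM with vehicle and at 39.0 and 26.1 CPM with UMBO. UMBO replicate 1 lay within the vehicle range and UMBO replicate 2 below it. The log2 fold change was -0.21 (standard error 0.228), with an edgeR unadjusted p of 0.389 and an adjusted p of 0.623. It was 0.05 without UMBO replicate 2. The gene (chromosome 8, 110741829 to 110805924, minus strand) shares 22 and 75 exonic bases with the antisense genes Gm15894 and Gm15895, which had at most 33 counts in a library. Neuronal markers were lowest in the same library: the summed level of the 12 neuronal genes was 9098 to 13000 CPM with vehicle, 9206 CPM in UMBO replicate 1 and 4660 CPM in UMBO replicate 2. Il34 amounted to 0.316, 0.427 and 0.36% of that sum in the vehicle libraries and to 0.423 and 0.559% in the UMBO libraries. The part of neuronal content in the Il34 level was not tested.

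The balance of the 2 ligands was then compared within each library. Per kilobase of exon, the Il34 level was 4.11, 2.76 and 2.81 times the Csf1 level with vehicle and 2.43 and 1.17 times with UMBO. By this length Il34 was thus the more abundant ligand transcript in all 5 libraries, and by the least in UMBO replicate 2. The longest transcripts have 1796 bases for Il34 and 4176 for Csf1, against 1959 and 5281 exonic bases. Using them as length narrows that lead, and it leaves the 2 ligands almost level in UMBO replicate 2. On the CPM scale the log2 ratio averaged 0.23 ± 0.324 (SD, n = 3) in the vehicle group and -0.68 ± 0.745 (SD, n = 2) in the UMBO group, and the groups did not overlap. They lay -0.91 apart, at an exact 2-sided permutation p of 0.1, the smallest that the 10 groupings of 3 and 2 libraries allow. It was -0.38 without UMBO replicate 2 and -1.44 without UMBO replicate 1.

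Csf1r was the most abundant of the 8 genes. It was at 99.05, 140.7 and 126.6 CPM in the vehicle libraries and at 190.4 and 173.2 CPM in the UMBO libraries. Here the UMBO libraries were alike, and UMBO replicate 2 was not the higher one. The means of 122.1 ± 21.2 CPM (SD, n = 3) and 181.8 ± 12.2 CPM (SD, n = 2) were 1.49-fold apart. The log2 fold change was 0.57 (standard error 0.217), with an edgeR unadjusted p of 0.0384 and an adjusted p of 0.497. With each library left out in turn it ranged from 0.44 to 0.71. Csf1r lies on chromosome 18 (61100598 to 61132149, plus strand) and shares 873 exonic bases with Hmgxb3 on the opposite strand, which had 2266 to 3975 counts against 7407 to 16276 for Csf1r. Whether the counting used strand is not given in the sources used here, so part of these counts may come from Hmgxb3.

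Csf1r was then set beside a list of 12 homeostatic microglia genes (Tmem119, P2ry12, Gpr34 and others), 8 of which the study also used as its microglia genes. Their summed level was 674.1, 1055 and 1038 CPM with vehicle and 1409 and 1555 CPM with UMBO, so the list too was higher in both UMBO libraries. For 9 of the 12 the UMBO libraries did not overlap the vehicle libraries and were higher, against 11.5% of all genes, and none of the 12 was at 0. The other 3, P2ry12, Slc2a5 and Sall1, had log2 fold changes just below 0 and were lowest in UMBO replicate 2. P2ry12, a purinergic receptor of resting microglia, was at 37.6, 31.9 and 42.8 CPM with vehicle and at 51.7 and 20.8 CPM with UMBO. Csf1r amounted to 14.7, 13.3 and 12.2% of the summed level in the vehicle libraries and to 13.5 and 11.1% in the UMBO libraries. The share in UMBO replicate 1 lay inside the vehicle range and that in UMBO replicate 2 just under it. The part of microglial content in the Csf1r level was not tested.

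The GM-CSF receptor subunits differed from each other. Csf2ra, the ligand-binding alpha subunit, was at 29.7, 37.7 and 36.8 CPM with vehicle and at 37.4 and 44.5 CPM with UMBO, and the groups overlapped. In edgeR its log2 fold change was 0.24 (standard error 0.186) at an adjusted p of 0.534, and 0.105 without UMBO replicate 2. Csf2rb, the common beta subunit shared with the IL-3 and IL-5 receptors, was at 2.88, 8.31 and 4.04 CPM with vehicle and at 7.5 and 21.0 CPM with UMBO. Vehicle replicate 2 lay above UMBO replicate 1, and UMBO replicate 2 lay far above both. The log2 fold change of Csf2rb was 1.49 (standard error 0.593), with an edgeR unadjusted p of 0.046 and an adjusted p of 0.497, and it was 0.56 without UMBO replicate 2.

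Per kilobase, the beta subunit stood at 3.82, 8.68 and 4.33% of the alpha subunit in the vehicle libraries and at 7.92 and 18.6% in the UMBO libraries. The near-identical neighbor Csf2rb2, an IL-3-specific beta chain of the mouse, can share reads with Csf2rb. It was at 2.11, 5.84 and 2.81 CPM with vehicle and at 4.61 and 14.3 CPM with UMBO, in the same order of libraries as Csf2rb except that vehicle replicate 2 was further above UMBO replicate 1. The 2 genes lie next to each other on chromosome 15, Csf2rb at 78325752 to 78353847 on the plus strand. The cytokines themselves were hardly detected: Csf2, which encodes GM-CSF, had 1 to 12 counts per library, and Il3 had 1 count in vehicle replicate 1 and 0 in the others, too few to be tested.

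Spi1, Irf8 and Runx1, the transcription factors, had higher means with UMBO, and UMBO replicate 2 was the highest library for each. Spi1 was at 4.28, 13.3 and 5.66 CPM with vehicle and at 11.8 and 36.9 CPM with UMBO. UMBO replicate 1 lay below vehicle replicate 2, and UMBO replicate 2 was the highest library by a wide margin. The log2 fold change was 1.65 (standard error 0.641), with an edgeR unadjusted p of 0.042 and an adjusted p of 0.497. Spi1 lies on chromosome 2 (91082390 to 91115756, plus strand).

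Irf8, which works with PU.1 in microglia, monocytes and dendritic cells, was at 9.64, 31.4 and 13.5 CPM with vehicle and at 25.3 and 77.2 CPM with UMBO. The libraries stood in the same order as for Spi1. Its log2 fold change was 1.495 (standard error 0.637), and its edgeR unadjusted p of 0.0573 did not reach 0.05. With UMBO replicate 2 left out, Spi1 had a log2 fold change of 0.61 ± 0.572 and Irf8 one of 0.475 ± 0.565 (standard errors), about as large as the errors. Irf8 lies on chromosome 8 (120736358 to 120756694, plus strand), and its first RefSeq start is the one whose GAS letters are printed above.

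Runx1, which partners with CBF-beta, was the least abundant of the 8, at 2.45, 4.32 and 2.79 CPM with vehicle and 4.61 and 8.43 CPM with UMBO. Both UMBO libraries were above every vehicle library, UMBO replicate 1 only slightly so. The log2 fold change was 1.03 (standard error 0.396), with an edgeR unadjusted p of 0.0402 and an adjusted p of 0.497, and it was 0.54 without UMBO replicate 2. The gene spans 92601466 to 92826149 on the minus strand of chromosome 16, and the antisense gene Gm26626 that overlaps it had at most 9 counts.

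**Figure D2:**
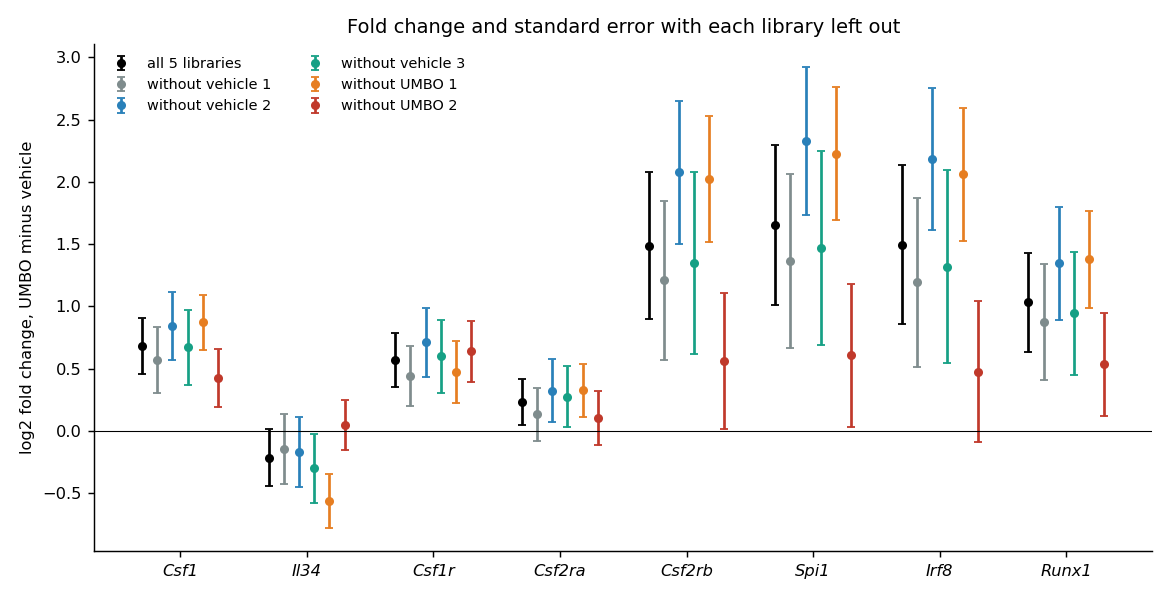
Log2 fold change (UMBO minus vehicle, vertical axis) of the 8 genes from edgeR with all 5 libraries (black) and with each library left out in turn (colors); bars are standard errors. Csf1r stays between 0.44 and 0.71, while Spi1 runs from 0.61 without UMBO replicate 2 to 2.33 without vehicle replicate 2.

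Leaving out UMBO replicate 1 left UMBO replicate 2 alone against the vehicle libraries, with its spread taken to be like theirs. Csf1 (adjusted p 0.0429), Csf2rb (0.0419), Spi1 (0.04) and Irf8 (0.0438) then passed in edgeR's quasi-likelihood test. In that fit 18.3% of all genes passed, and Csf1r, at an adjusted p of 0.189, did not.

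The libraries took 1 order for Csf2rb, Spi1 and Irf8: vehicle replicate 1, vehicle replicate 3, UMBO replicate 1, vehicle replicate 2 and UMBO replicate 2, from low to high. On the first principal component of all tested genes they had this order too, at -68.42, -68.19, -14.11, 17.02 and 133.7. That component held 78.7% of the variance, so the order was not particular to these genes. The profiles of Csf2rb, Spi1 and Irf8 were close to each other. The root mean square difference of the centered log2 CPM over the 5 libraries was 0.0739 between Spi1 and Irf8, 0.0772 between Csf2rb and Irf8 and 0.111 between Csf2rb and Spi1, where each of these genes spanned 2.86 to 3.10 on that scale. Between Csf1r and Spi1 it was 0.852, and between Csf1r and Csf1 it was 0.202.

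The summed level of 14 monocyte and macrophage genes (Ly6c2, Ccr2, Ms4a7 and others) had that same order. It was 182.4, 514.1 and 204.7 CPM with vehicle and 370 and 1503 CPM with UMBO, and none of its genes was at 0. Spi1 amounted to 2.35, 2.59 and 2.76% of that sum with vehicle and to 3.19 and 2.46% with UMBO. A few less specific genes carried the sum: Gpnmb alone was at 51.6, 181.8 and 26.5 CPM with vehicle and at 102.7 and 624.4 CPM with UMBO. Ly6c2, a monocyte surface marker, was at 0.629, 3.68 and 1.06 CPM and at 1.58 and 26.0 CPM. Ccr2, the chemokine receptor of inflammatory monocytes, was at 1.16, 3.50 and 2.35 CPM and at 1.90 and 11.7 CPM, so that UMBO replicate 1 lay below vehicle replicate 3, unlike for Spi1. Against the microglia list, the share of Spi1 ran from 0.545 to 2.37%. The 10 proliferation genes, which dividing tumor cells express, ran from 33.7 to 106.8 CPM with vehicle and were at 110.8 and 467.9 CPM with UMBO. Among other leukocyte lists, the 10 dendritic cell genes summed to 29.97 to 44.6 CPM with vehicle and 34.8 and 58.5 CPM with UMBO. Of the 10, 8 had a log2 fold change above 0, where 50.9% of all genes did. The 2 below 0, Flt3 and Zbtb46, held a large part of that sum. Flt3 was at 12.1, 9.98 and 15.9 CPM with vehicle and at 9.89 and 6.34 CPM with UMBO. Zbtb46 was at 11.6, 9.26 and 11.65 CPM and at 10.4 and 6.275 CPM. The 12 lymphocyte genes were at 19.2 to 34.9 and at 13.2 and 52.5 CPM. Of these 12, 11 had a log2 fold change above 0 and 1, Cd4, below. Cd4 held a large part of the sum, at 14.6, 14.0 and 7.31 CPM with vehicle and at 4.56 and 8.31 CPM with UMBO. The 6 of 11 neutrophil genes with enough counts were at 11.2 to 18.2 and at 24.4 and 31.1 CPM. Csf3r, which is also on the list of CSF receptor partners below, carried most of that sum. It was at 9.04, 14.8 and 12.9 CPM with vehicle and at 21.1 and 24.1 CPM with UMBO. Only this 1 of the 6 (16.7%) had both UMBO libraries above the vehicle libraries, against 11.5% of all genes. The part of leukocyte or tumor content in the levels of Spi1, Irf8 and Csf2rb was not tested.

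**Figure D3:**
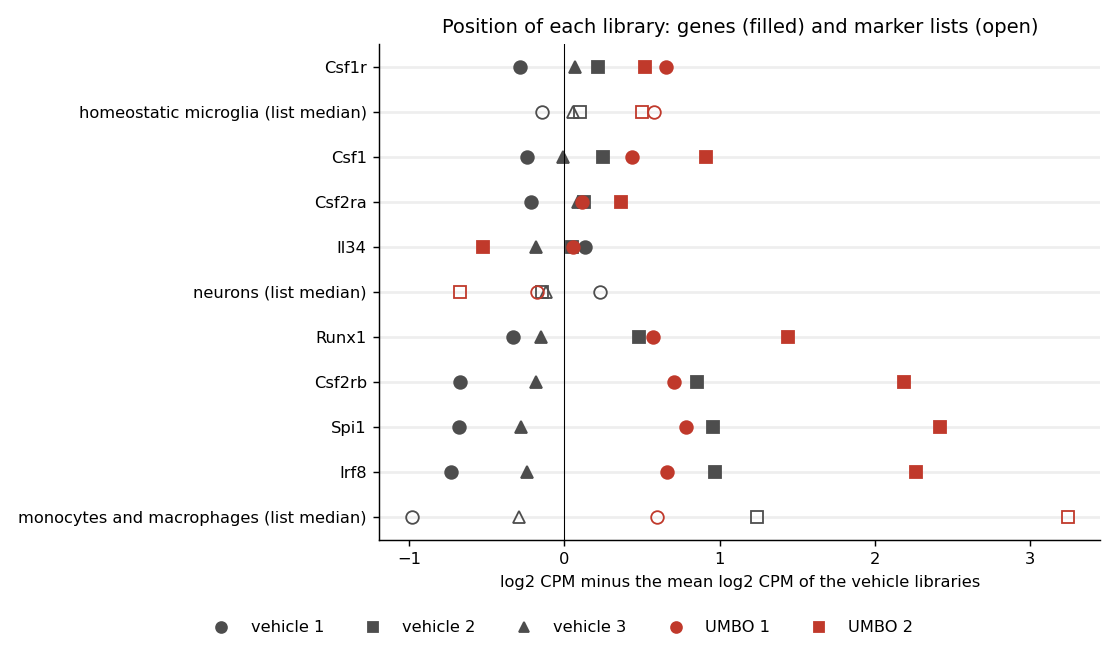
Position of each library (log2 CPM minus the vehicle mean, horizontal axis) for the 8 genes (filled) and for the median of 3 marker lists (open). Csf1r lies like the microglia list, with the UMBO libraries at 0.66 and 0.52, and Spi1, at 0.78 and 2.42, is spread in the order of the monocyte and macrophage list.

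Ratios to Csf1r within a library were compared for the 7 other genes. For Il34 to Csf1r the log2 ratio averaged -1.69 ± 0.365 (SD, n = 3) in the vehicle group and -2.51 ± 0.313 (SD, n = 2) under UMBO, and the groups did not overlap. That of Csf2ra to Csf1r was -1.80 ± 0.0833 (SD, n = 3) and -2.16 ± 0.274 (SD, n = 2), again without overlap. Each of these 2 reached an exact 2-sided permutation p of 0.1, the smallest possible, and 0.35 when adjusted over the 7 ratios. For Csf1 to Csf1r the difference was 0.09 with an exact permutation p of 0.8, and the groups overlapped. Spi1 to Csf1r ran from -4.52 to -3.40 with vehicle and was at -4.01 and -2.23 with UMBO, a difference of 1.01 with an exact permutation p of 0.3. That difference was 0.125 without UMBO replicate 2 and 1.90 without UMBO replicate 1. The remaining ratios, of Csf2rb, Irf8 and Runx1, overlapped as well.

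Per kilobase of exon, the mean level over the 5 libraries was 25.3 CPM per kb for Csf1r, 18.2 for Il34, 12.96 for Csf2ra, 7.58 for Csf1, 5.34 for Spi1, 4.45 for Irf8, 1.20 for Csf2rb and 0.376 for Runx1. Several neighbors in this order did not stand apart. Il34 was above Csf1r in vehicle replicate 1, at 21.0 against 17.1 CPM per kb. Csf2ra was above Il34 in UMBO replicate 2, at 15.5 against 13.3, and Spi1 was above Csf1 there, at 13.7 against 11.4. Spi1 was above Irf8 in all 5 libraries by little, at 2.88 ± 1.81 against 2.58 ± 1.65 CPM per kb in the vehicle group (SD, n = 3), and their order turned when the longest transcript was used as the length. Csf2ra above Csf1, Irf8 above Csf2rb and Csf2rb above Runx1 also held in all 5 libraries.

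The other genes of the pathway were read from lists, of which the median of all tested genes, 0.01 on the log2 scale, is the baseline. Of 32 partners and signaling proteins of the CSF receptors, 28 had enough counts and 0 passed the adjusted threshold of edgeR. The median log2 fold change was 0.70, with 19 genes above 0 and 9 below, where 50.9% of all genes were above 0. Of the 28, 9 had an unadjusted p under 0.05 toward higher values and 0 toward lower, where 5.3% and 2.06% of all genes did. In 9 of the 28 (32.1%) the UMBO libraries were both higher than all vehicle libraries, against 11.5% of all genes, and in 2 they were both lower, against 11.4%. The 3 with the smallest p were Csf3r, Lyn and Inpp5d. Csf3r, the G-CSF receptor, was at 9.04, 14.8 and 12.9 CPM with vehicle and at 21.1 and 24.1 CPM with UMBO, and its log2 fold change was 0.88 ± 0.255 (standard error). Lyn, a Src family kinase, was at 10.6, 20.4 and 14.0 CPM with vehicle and at 25.4 and 42.6 CPM with UMBO. Inpp5d, the phosphatase SHIP1, was at 19.6, 28.0 and 21.8 CPM and at 31.1 and 47.5 CPM. Tyrobp, the DAP12 adaptor through which CSF1R also signals, was at 10.6, 34.3 and 14.4 CPM with vehicle and at 35.6 and 102.5 CPM with UMBO. UMBO replicate 1 and vehicle replicate 2 were almost level for it. Ptprz1, another receptor of IL-34 that was named after its values were seen, overlapped between the groups and had -0.38 ± 0.39 (standard error) as its log2 fold change.

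Of 30 other myeloid transcription factors all 30 were tested, 0 passed the adjusted threshold of edgeR, and 4 had an unadjusted p under 0.05, all toward higher values, where 5.3% of all genes did. In 5 of the 30 (16.7%) both UMBO libraries were higher than the vehicle libraries and in 2 both were lower, near the 11.5% and 11.4% of all genes. The median log2 fold change was 0.42, and 20 were above 0 and 10 below, where 50.9% of all genes were above 0. Cebpa and Cbfb were among those with the smallest p. Cebpa, a factor of granulocyte and monocyte commitment, was at 9.67, 16.5 and 9.77 CPM with vehicle and at 18.3 and 32.0 CPM with UMBO. Cbfb, which encodes the partner of RUNX1, was at 25.4, 28.1 and 29.3 CPM and at 35.3 and 38.4 CPM, with 0.42 ± 0.159 (standard error) as the log2 fold change. For both genes the UMBO libraries lay above the vehicle libraries.

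Of 18 genes known as targets of PU.1 or IRF8, all 18 had log2 fold changes above 0, where 50.9% of all genes did, with a median of 1.38. In edgeR 8 had an unadjusted p under 0.05 toward higher values, where 5.3% of all genes did, and 0 passed the adjusted threshold. Both UMBO libraries were above the vehicle libraries in 5 of them (27.8%), against 11.5% of all genes. Itgam, the CD11b integrin, was at 7.86, 16.4 and 9.47 CPM with vehicle and at 20.8 and 46.3 CPM with UMBO. Cd68, a lysosomal protein of phagocytes, was at 11.98, 25.5 and 13.6 and at 29.2 and 83.9 CPM. Ncf1, a subunit of the NADPH oxidase, was at 9.82, 22.5 and 13.6 and at 26.4 and 46.3 CPM. Lyz2 is also on the monocyte list, so the lists are not independent. Without UMBO replicate 2 the median log2 fold change was 0.50 for these targets, 0.31 for the receptor partners and 0.04 for the other transcription factors.

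**Figure D4:**
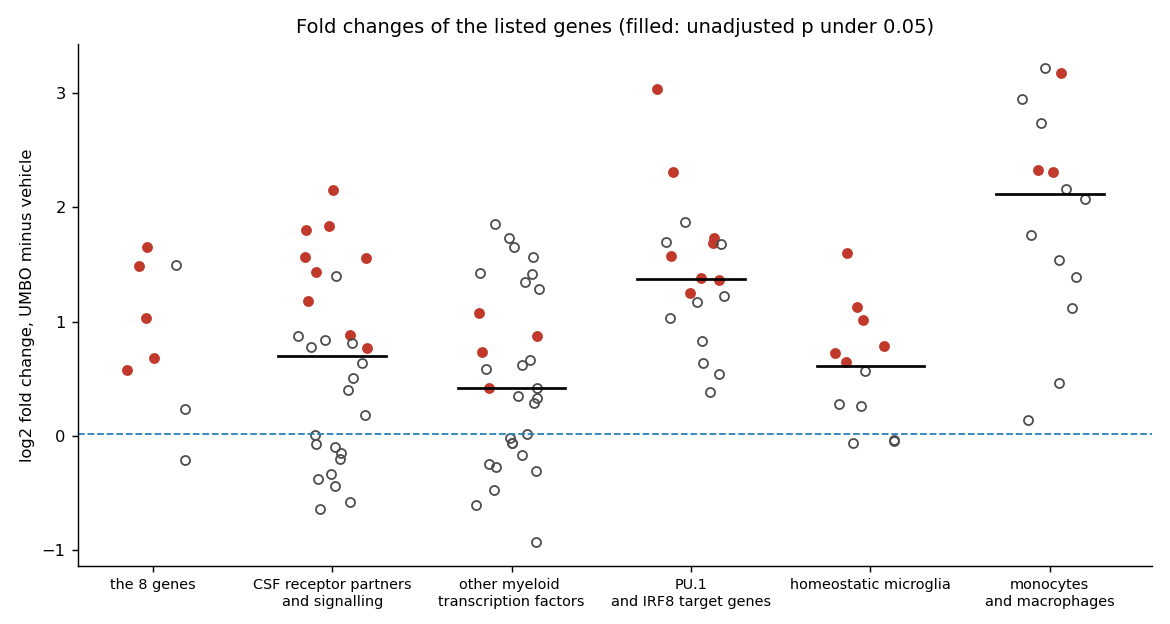
Log2 fold change (UMBO minus vehicle, vertical axis) of the tested genes of each list, 1 point a gene; filled points had an edgeR unadjusted p under 0.05, black lines are list medians and the dashed line is the median of all genes tested, 0.01. The medians are 0.70 for receptor partners, 0.42 for other transcription factors, 1.38 for PU.1 and IRF8 targets, 0.61 for microglia and 2.11 for monocytes and macrophages.

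The protein-coding genes with the most similar profile over the 5 libraries were found among 16405 by the same root mean square difference. This is a description, since it was chosen for likeness. Rab20 (0.0668) was among those of Spi1. They were, for Csf2rb, Cd84 (0.0324) and 5430427O19Rik (0.045), and for Irf8 Ifi213 (0.0643) and Cd84 (0.0688). Cd84, a leukocyte receptor of the SLAM family, was thus near both. It was at 4.76, 13.9 and 6.79 CPM with vehicle and at 12.6 and 37.0 CPM with UMBO. For Runx1 the nearest were Cyth4 (0.0488) and Hexa (0.0497), and for Csf1 Oaf (0.028) and Sh2d6 (0.0306). Csf1r was nearest to Tdgf1 (0.0439) and Plekhf1 (0.0487), which were at no more than 1.21 and 6.03 CPM. Il34 was nearest to Ahrr (0.0201) and Fam171a2 (0.0255), and Csf2ra to Bicc1 (0.0226) and Rnd2 (0.0228). The last 2 members spanned only 0.657 and 0.58 on the log2 scale, so many genes lay close to them.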

How the data were processed

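The files hold raw read counts per Ensembl gene for each of 5 libraries, deposited by the authors after alignment with STAR 2.7.2a to GRCm38, per the labels and the submitters' processing notes. Libraries were made with a SMARTER mRNA-Seq kit. The annotation release and the strand setting of the counting are not given in the sources used here. Gene symbols were matched for 55480 of 55573 identifiers with GENCODE M21, and identifiers without a symbol held at most 0.0017% of the counts. Mitochondrial genes were kept.

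The 3 vehicle and 2 UMBO libraries were compared with edgeR 4.0.16 in R 4.3.3 (filterByExpr, TMM factors, quasi-likelihood test, Benjamini-Hochberg adjustment over all 23592 genes tested). Log2 CPM used a prior count of 2. Standard errors are the log2 fold change divided by the square root of F. Ratios within a library were compared with an exact 2-sided permutation test. The study's methods divide separate mice between the groups, while the labels number the libraries without naming a mouse, so p-values measure the spread between these libraries. No pair of libraries was near-identical. The scripts were tested on simulated data.

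The 8 genes, the pathway lists (receptor partners and signaling, other myeloid transcription factors, PU.1 and IRF8 targets) and the cell type markers were chosen with earlier results of these data known. Other genes named are Csf2rb2, Csf2, Il3 and Tyrobp, the 3 genes of each pathway list with the smallest unadjusted p, and the 2 protein-coding genes nearest to each member by profile. A few genes that this rule names are not reported here. Genes named outside this rule are said to be so, or only identify a list or an overlap. P2ry12, Slc2a5, Sall1, Gpnmb, Ly6c2, Ccr2, Flt3, Zbtb46 and Cd4 were given values after these were seen. Alternatives were DESeq2 1.42.0, its size factors, library size alone, 2 other filters, a replicate block, each library left out, a prior count of 0.5 and the longest transcript as gene length.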

Additional observations from a re-analysis of the deposited data

How the results depend on the processing

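The main limits are the 2 UMBO libraries, their difference from each other, and a count of 0 adjusted calls in edgeR. Of the 8 log2 fold changes, only that of Il34 turned direction, to 0.051 without UMBO replicate 2. Without any filter 4100 of 40435 genes (10.1%) had an unadjusted p under 0.05, and the unadjusted p of Spi1 was 0.00419 in edgeR. DESeq2 was fitted to 40435 genes, of which 2738 (6.77%) had an unadjusted p under 0.05. In it 39 genes passed the adjusted threshold, 0.168% of those given an adjusted p. Scaling by library size alone shifted the all-gene median (log2) upward, to 0.125 in place of 0.0124, and turned none of the 8 directions. Using the longest transcript as length gave levels of 31.1 (Csf1r), 9.58 (Csf1), 16.3 (Csf2ra), 1.78 (Csf2rb), 9.06 (Irf8) and 0.771 (Runx1) CPM per kb.

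With a replicate block, 2337 genes (9.91%) passed the adjusted threshold in edgeR and 6134 (26%) had an unadjusted p under 0.05. The members that passed the adjusted threshold were Csf1, Csf2rb, Spi1, Irf8 and Runx1. Their log2 fold changes in that fit were 0.673, 1.359, 1.467, 1.344 and 0.939. Libraries of the same number had correlated deviations, 0.453 for number 1 and 0.76 for number 2, but nothing in the labels ties the numbers to a shared litter or day, and with 2 UMBO libraries both deviations mirror each other. The numbers were therefore not taken as pairs, and the cause was not tested.

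When single libraries were left out, the adjusted calls ranged from 0 to 4543, the highest without UMBO replicate 1, and the genes with an unadjusted p under 0.05 from 296 (without vehicle replicate 1) to 10165. The members with an unadjusted p under 0.05 toward higher values, an alternative chosen after seeing the data, ranged from 0 to 6. They were 0 where 1.28% or 1.88% of all genes had such a p in either direction. They were 6 without vehicle replicate 2, where 11.6% did. Log2 fold changes ranged from 0.427 to 0.872 for Csf1, -0.559 to 0.051 for Il34, 0.105 to 0.327 for Csf2ra, 0.564 to 2.077 for Csf2rb, 0.607 to 2.329 for Spi1, 0.475 to 2.182 for Irf8 and 0.535 to 1.377 for Runx1. List medians ranged from 0.307 to 1.0 for the receptor partners, 0.044 to 0.686 for the other transcription factors and 0.497 to 1.889 for the targets. The log2 ratio to Csf1r differed by -0.216 to 0.394 for Csf1 and by -0.082 to 0.921 for Runx1, both negative without UMBO replicate 2. It differed by -0.543 to -0.156 for Csf2ra, 0.049 to 1.668 for Csf2rb, 0.125 to 1.903 for Spi1 and 0.004 to 1.75 for Irf8. The cause was not tested.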

Other observations

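Among the other myeloid transcription factors, Mef2c, a factor of microglia that neurons also express, went against the median of its list. Chosen after its values were seen, it was at 686.1, 385.1 and 386.8 CPM in the vehicle libraries and at 343.1 and 167.5 CPM in the UMBO libraries, which both lay lower, with an edgeR adjusted p of 0.497. The neuronal genes were lowest in UMBO replicate 2 as well, and their part in the Mef2c level was not tested. Of the marker lists not described above, the 10 reactive astrocyte genes summed to 347.6 to 933.7 CPM with vehicle and to 1876 and 3045 CPM with UMBO, and the 9 astrocyte genes to 3764 to 5146 and to 4827 and 2423 CPM. The 9 striatal genes summed to 933.6 to 1521 CPM with vehicle and to 804 and 1046 CPM with UMBO. The 8 oligodendrocyte genes were at 6003 to 6147 and at 6406 and 5536 CPM, and the 8 choroid plexus genes at 828 to 880.2 and at 878.9 and 506.2 CPM.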
